A study of Mus musculus with 34 samples.

Results

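Neuro-2A (N2A) cells, an established mouse neuroblastoma line, were profiled by polyA RNA-seq after 24 h with Vorinostat (SAHA) or with the solvent alone, to ask what this histone deacetylase (HDAC) inhibitor did to splicing and to RNA levels. The comparison took 5 of the 34 libraries of the series: 2 treated with Vorinostat (A and B, listed at 2.5 µM) and 3 treated with DMSO (A, B and C), all carrying 0.4% DMSO. All were cultures of this 1 line, which the study's methods call biological replicates, so the p-values measure the spread between cultures of a single line. All 401633 splicing events of the table and all 52661 annotated genes were considered for this pair of conditions, and the remaining libraries held other compounds in the same cells. Reads counted at exon events ranged from 37427027 to 75978445 in the DMSO libraries and were 33489970 and 50143306 in Vorinostat A and B.

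Histone deacetylases remove acetyl groups from lysines of histones and other proteins, and Vorinostat is a hydroxamate that binds the zinc ion of the class I and class II enzymes. Blocking them raises histone acetylation, and in dividing cells such compounds are known to induce the cell cycle inhibitor Cdkn1a and to slow proliferation. Microexons are the shortest cassette exons, taken here as those of up to 27 nt; many are spliced in mainly in neurons, where the SR-related protein Srrm4 is their best known activator, and they often add a few residues to proteins of synapses, vesicles and the cytoskeleton.

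Inclusion was measured as percent spliced in (PSI), the share of junction reads that include an exon, retain an intron or use a splice site. An event counted as increased or decreased when its mean PSI moved by 10 or more and when over 0.95 of the posterior draws, made from the read counts, went the same way. Since this rule rests largely on read counts, a limma fit across 28998 events, which uses the spread between libraries, was run beside it, and its Benjamini-Hochberg adjusted p is given with each named event. It called 213 events at an FDR of 0.05, of which 144 rose and 69 fell, and 4611 (15.9%) had an unadjusted p under 0.05. With 2 libraries against 3, an exact permutation test of a single event cannot go below p = 0.2 (two-sided), so none is given.

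By the reads-based rule, more microexons moved toward inclusion than away from it. Of 610 detected microexons, 47 were called increased (7.7%) and 14 decreased (2.3%), and 40 and 11 of these were measured in all 5 libraries. The balance did not hold in the limma fit, where 2 increased and 3 decreased microexons passed an FDR of 0.05 with a change of 10 PSI, and 0 passed with the replicate letter as a block. Among those measured in all 5 libraries, the largest increase was in the receptor gene Adgrl2 and the largest decrease in a 3-nt exon of the adhesion molecule gene Ncam1. The named microexons are taken from the 10 largest increases and the 10 largest decreases among these, and 19 of them are described. Naming required that the Vorinostat and DMSO values not overlap, so a lack of overlap in a named event adds no support.

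Their sequences are shown because the exons are short enough to be read whole. Each is written 5′ to 3′ on the transcribed strand, with the microexon in capitals between 9 bases of its upstream and 9 bases of its downstream exon in lower case. Positions are on mm9, the build of the event table, and the letters come from the GENCODE vM21 transcript whose exon and flanking introns have the same lengths on the same chromosome and strand. The Ncam1 and Cyth1 exons had no such match. All but the Ccnl1 exon, which is left out here, lie inside a coding sequence. The first 8 increased with Vorinostat.
Adgrl2 (Lphn2), 12 nt at chr3:148523391-148523402, minus strand: tcccttacaTGGAGCAAAAAGtctttgtgt
Sptan1 (Spna2), 15 nt at chr2:29869678-29869692, plus strand: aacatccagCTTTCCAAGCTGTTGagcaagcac
Synj1, 24 nt at chr16:90971809-90971832, minus strand: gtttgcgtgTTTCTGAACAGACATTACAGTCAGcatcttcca
Tbc1d4, 3 nt at chr14:101859916-101859918, minus strand: aactggaagAAGcaagaagag
L1cam, 12 nt at chrX:71100991-71101002, minus strand: cgagtacagGTCCCTGGAGAGtgacaatga
Pacsin2, 6 nt at chr15:83214053-83214058, minus strand: cagtttgagGATGAAgagtggtct
Trappc9, 27 nt at chr15:72872607-72872633, minus strand: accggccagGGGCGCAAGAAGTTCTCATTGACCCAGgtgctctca
Eif4g1, 21 nt at chr16:20674859-20674879, plus strand: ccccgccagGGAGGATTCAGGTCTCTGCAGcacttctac
The following 8 decreased.
Trappc13 (2410002O22Rik), 18 nt at chr13:104942245-104942262, minus strand: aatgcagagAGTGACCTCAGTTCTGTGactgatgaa
Nbea, 9 nt at chr3:55797970-55797978, minus strand: tcgccaactGGTTCTAAGactgaattg
Vps29, 12 nt at chr5:122806803-122806814, plus strand: gacaggatgGCTGGGCACAGAttggtgttg
Med23, 18 nt at chr10:24603010-24603027, plus strand: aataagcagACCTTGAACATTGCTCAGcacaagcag
Cacna1b, 6 nt at chr2:24498373-24498378, minus strand: gagatagcgGAAACGaacaacttc
Sgce, 27 nt at chr6:4640469-4640495, minus strand: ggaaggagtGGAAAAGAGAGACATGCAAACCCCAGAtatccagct
Incenp, 12 nt at chr19:9957682-9957693, minus strand: gaccctaagTGCAGCTTTGTTgagaaggag
Kif3a, 9 nt at chr11:53404219-53404227, plus strand: tcttgcctcACCAAGCAGgtaaaaaga

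Among receptors and adhesion molecules, the 12-nt exon of Adgrl2 (listed as Lphn2), an adhesion G protein-coupled receptor of the latrophilin family, had a PSI of 16.95, 15.1 and 18.5 in DMSO A, B and C and of 40.8 and 45.7 in Vorinostat A and B. It rose by 26.4 PSI (adjusted p = 0.0944, limma). The 12-nt exon of L1cam, which encodes a neural adhesion molecule of growing axons, rose by 21.7 PSI, from 42.6, 41.4 and 38.1 to 62.5 and 62.3 (adjusted p = 0.0769, limma). The 2 Vorinostat libraries nearly coincided for this exon.

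Several increased microexons belong to genes of the membrane skeleton and vesicle traffic. Sptan1 (listed as Spna2), the alpha-II spectrin under the plasma membrane, had the firmest increase. Its 15-nt exon went from 68.3, 69.3 and 66.1 to 92.3 and 92.9, on 727 to 2571 reads (adjusted p = 0.01096, limma). Exon inclusion in Synj1, a phosphoinositide phosphatase of synaptic vesicle recycling, rose from 64.8, 66.5 and 62.5 to 87.6 and 90.3 (24 nt, adjusted p = 0.0917, limma). The groups were apart for both exons, as the naming rule required. The 6-nt exon of Pacsin2, a membrane-bending F-BAR protein, was at 37.5, 34.6 and 40.5 in DMSO and at 61.2 and 56.7 with Vorinostat (adjusted p = 0.0596, limma). Trappc9, a subunit of a tethering complex at the Golgi, had a 27-nt exon at 29.7, 31.6 and 33.2 in DMSO and 48.3 and 55.6 with Vorinostat (adjusted p = 0.144, limma). Neither group overlapped the other for these exons, which the naming rule required.

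The other increases among the first 10 were in a Rab regulator, a translation factor and a cyclin. Tbc1d4, a Rab GTPase-activating protein known from glucose transporter traffic, had a 3-nt exon at 27.6, 23.7 and 21.5 in DMSO and 52.2 and 40.2 with Vorinostat, where library A rested on 54 reads (adjusted p = 0.202, limma). A 3-nt shift of the downstream acceptor of the same gene was counted as a separate event. That alternative site moved from 23.9, 17.2 and 14.7 to 61.3 and 42.6, and since both events add 3 nt at the same junction, the reads behind them cannot be told apart here. Eif4g1 is the scaffold of the cap-binding translation initiation complex, and its 21-nt exon rose from 47.3, 47.5 and 50.2 to 67.1 and 69.9 (adjusted p = 0.0473, limma). The 14-nt exon of Ccnl1, at chr3:65754135-65754148, rose from 9.1, 8.6 and 4.9 to 28.1 and 26.5 (adjusted p = 0.0808, limma). Ccnl1 encodes cyclin L1, a partner of kinases that act on splicing factors, and this exon is in a transcript outside its coding sequence.

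The largest decrease was in Ncam1, an immunoglobulin-family adhesion molecule of neural cells. Its 3-nt exon at chr9:49340079-49340081 had a PSI of 64.8, 66.3 and 68.8 in DMSO and of 36.2 and 31.3 with Vorinostat, a fall of 32.9 PSI (adjusted p = 0.0262, limma). Here too an acceptor 3 nt upstream was listed as an alternative 3′ site, going from 62.6, 65.7 and 66.7 to 36.5 and 29.9 (adjusted p = 0.0473, limma), and the 2 events may count the same reads. The 3 nt were thus present in most Ncam1 junctions without the inhibitor and in a minority with it, while the RNA of the gene was higher, from 63.4 to 128 RPKM.

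Other decreased microexons were in trafficking and endosomal proteins. The 18-nt exon of Trappc13 (listed as 2410002O22Rik), which encodes another tethering subunit, fell from 52.9, 53.9 and 55.6 to 20.5 and 26.7 (adjusted p = 0.0358, limma). Microexon inclusion thus rose in Trappc9 and fell in Trappc13. Vps29 is a subunit of retromer, which returns cargo from endosomes, and its 12-nt exon fell from 53.5, 54.2 and 55.4 to 30.8 and 32.2 on 1909 to 3788 reads (adjusted p = 0.0151, limma). Nbea encodes neurobeachin, which takes part in receptor traffic to synapses. Its 9-nt exon fell from 85.6, 85.7 and 88.3 to 59.98 and 58.7 (adjusted p = 0.0682, limma), and the 3-nt exon of Cyth1, an activator of Arf GTPases, fell from 87.9, 79.4 and 92.6 to 64.03 and 60.8 (adjusted p = 0.177, limma). The spread of Cyth1 among DMSO libraries was larger than that of Nbea, at SDs of 6.7 and 1.5 PSI.

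The remaining decreases by size were in nuclear, channel and motor genes. The Mediator subunit Med23 had an 18-nt exon at 39.5, 47.4 and 40.8 in DMSO and 24.8 and 17.3 with Vorinostat (adjusted p = 0.141, limma). Cacna1b, the pore of the N-type calcium channel of presynaptic terminals, had a 6-nt exon at 89.6, 92.8 and 85.8 in DMSO that fell to 71.7 and 71.4 (adjusted p = 0.181, limma). Inclusion thus dropped in a channel whose junction reads rose, as given below among ion channels. The 27-nt exon of the sarcoglycan gene Sgce went from 85.8, 77.96 and 83.2 to 68.6 and 62.7, and the 9-nt exon of the kinesin subunit gene Kif3a from 83.1, 84.8 and 82.2 to 69.9 and 71.01 (adjusted p = 0.219 and 0.1103, limma). Incenp, a subunit of the chromosomal passenger complex of dividing cells, had a 12-nt exon at 55.1, 54.6 and 48.8 in DMSO that fell to 34.1 and 44.04 (adjusted p = 0.2997, limma). This exon was the least firm of those described: without Vorinostat A it changed by 8.8 PSI downward and was not called.

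**Figure D1:**
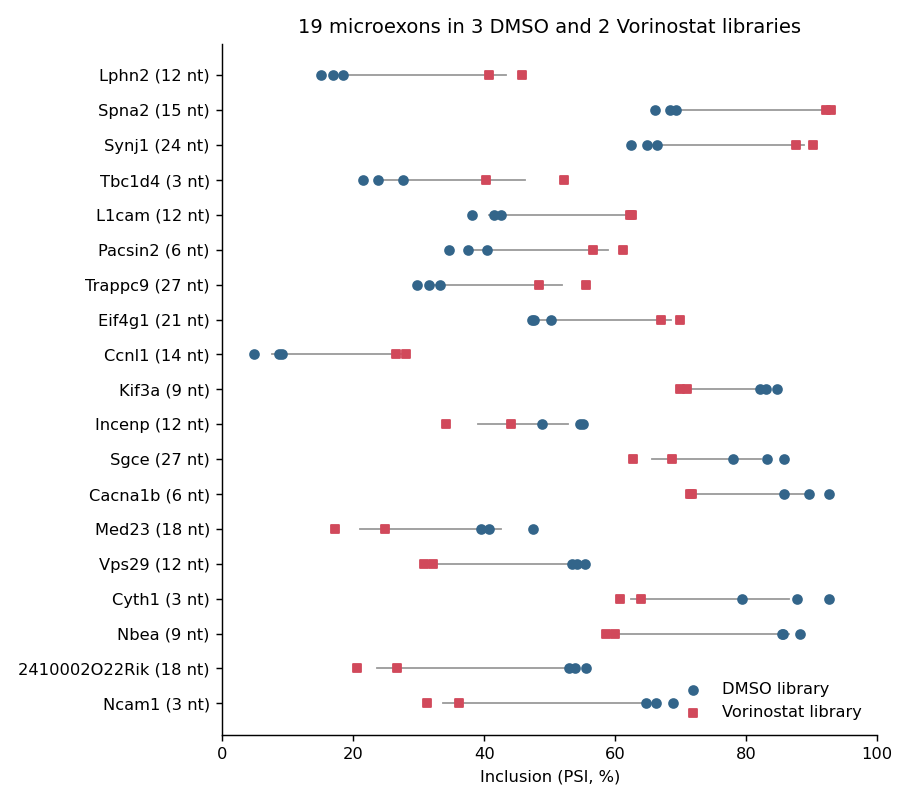
Inclusion of 19 named microexons in each library, with PSI in percent on the horizontal axis, circles for the 3 DMSO libraries, squares for the 2 Vorinostat libraries and a grey line between the group means. Circles and squares do not overlap for any of them, since the calling and naming rules required it, and the largest moves are those of Ncam1 downward (32.9 PSI) and Lphn2 upward (26.4 PSI).

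The called microexons were spread unevenly over length, frame and starting level. Increases were rare among the shortest exons, at 4 of 162 of 3 to 9 nt, against 17 of 153 of 10 to 15 nt, 11 of 105 of 16 to 21 nt and 15 of 190 of 22 to 27 nt. Decreases numbered 5 of 162 in the shortest bin. Of the 47 increased microexons, 45 had a length that is a multiple of 3, as did all 14 decreased ones and 452 of the 610 detected. Increases were most frequent where DMSO inclusion was 10 to 30 PSI, at 16 of 54 exons (29.6%), and 11 more came from the 231 exons under 10 PSI. No increase was possible by rule above 90 PSI, where 218 of the 610 exons lay. A match to GENCODE was found for 44 of the 47 and 12 of the 14, of which 41 and 11 lay inside a coding sequence. The median GC content of the matched exons was 48.4% for increased, 46.2% for decreased and 47.6% for uncalled microexons.

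The call rates were also read among exons of mid-range inclusion. Limited to a DMSO mean PSI of 10 to 90, 36 of 161 microexons increased (22.4%) and 13 decreased (8.1%), beside 15.4% and 5.2% of 2727 cassette exons. The median change over these mid-range exons was 4.77 PSI for microexons and 3.40 PSI for cassette exons. The SD among DMSO libraries had a median of 0.78 PSI and a 95th percentile of 5.75 PSI over all detected microexons, most of which lie near 0 or 100 PSI. Vorinostat A and B differed by a median of 0.85 PSI and a 95th percentile of 8.41 PSI. Of the other increased microexons, chosen here after their values were seen, those in Pus7, Tmem184b, Plec, Sh3glb1, Dctn1, Mef2a and Zmynd8 gained 12.3 to 17.8 PSI. Plec and Dctn1 encode cytoskeletal linkers, and Mef2a is a transcription factor of neurons and muscle. Large changes in Prdm10, Taf1, Fry, Urgcp, Tbc1d24 and Prom1 rested on 1 Vorinostat library and were not named. A 3-nt exon of Ralgapa1 that rose by 37.2 PSI was not measured in DMSO C and rested on 28 and 16 reads in DMSO A and B.

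Exons of the genes that the study followed by RT-PCR in its screen were also read out, and for the longer exons the sources used here do not give which exon of the gene was assayed. Mef2d is a neuronal transcription factor whose 21-nt exon was built into the screening reporter. Its own exon, at chr3:87965703-87965723, was already high, at 89.5, 88.7 and 88.7, and reached 93.8 and 94.1 with Vorinostat. The 5.0 PSI between the means fell short of the 10 PSI rule, although the groups did not overlap (adjusted p = 0.238, limma). The 21-nt exon of the kinase gene Mast2 had 47.1, 48.9 and 33.3 in DMSO and 68.7 and 48.5 with Vorinostat and was not called (adjusted p = 0.443, limma). Vorinostat B lay within the DMSO values of this exon, and without B the difference was 25.6 PSI and met the rule. Ergic3, a protein that cycles between endoplasmic reticulum and Golgi, had a 15-nt exon at 33.9, 39.8 and 42.01 in DMSO and at 39.6 and 43.1 with Vorinostat, a difference smaller than the SD of the DMSO libraries. The longer exons behaved differently from each other. Of 11 measured exons of the palmitoyltransferase gene Zdhhc20 1 was called, a 36-nt exon that rose by 33.9 PSI, from 28.96, 41.4 and 31.3 to 65.7 and 69.9 (adjusted p = 0.08799, limma). Of 20 measured exons of Asph, a hydroxylase of the endoplasmic reticulum, 1 was called, a 45-nt exon that rose by 20.4 PSI, from 70.8, 56.5 and 57.5 to 83.2 and 80.7 (adjusted p = 0.163, limma). A 48-nt exon of Asph had a mean PSI of 26.3 in DMSO and 36.5 with Vorinostat and was not called. None of the 10 measured exons of the ubiquitin ligase gene Mgrn1 was called, with differences from -6.4 to 4.9 PSI. The called Zdhhc20 and Asph exons read as follows, with the exon in capitals and 9 flanking exon bases on each side.
Zdhhc20, 36 nt at chr14:58468982-58469017, minus strand: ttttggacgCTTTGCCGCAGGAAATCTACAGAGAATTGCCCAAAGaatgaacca
Asph, 45 nt at chr4:9564806-9564850, minus strand: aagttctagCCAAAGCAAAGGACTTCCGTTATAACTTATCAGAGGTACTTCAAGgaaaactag

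Longer cassette exons also moved more often toward inclusion. Of 57001 detected exons over 27 nt, 458 increased (0.803%) in 422 genes and 241 decreased (0.423%) in 231 genes, and 365 and 171 of these were measured in all 5 libraries. Without Vorinostat A, 394 decreased. Multiples of 3 made up 58.7% of the increased and 53.9% of the decreased exons, against 39.5% of all detected.

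A 39-nt exon of Spag9, which encodes the JNK and motor scaffold JIP4, rose from 33.5, 35.7 and 36.4 to 79.4 and 75.6 (adjusted p = 0.0136, limma). Both groups were tight for this exon. In Ptprf, the LAR receptor tyrosine phosphatase of axons and synapses, a 33-nt exon went from 7.9, 8.2 and 13.2 to 47.7 and 46.8 (adjusted p = 0.0232, limma), from rare to about even use. The 198-nt exon of the leucine-rich repeat gene Lrrc49 had the largest difference, 48.8 PSI, from 21.2, 16.9 and 7.5 to 62.4 and 65.6 (adjusted p = 0.0517, limma). A 75-nt exon of the GTPase-activating protein gene Arhgap12 went from 41.9, 34.9 and 39.3 to 76.02 and 84.5, and a 69-nt exon of Syne2, the nuclear envelope protein nesprin-2, from 48.98, 50.3 and 55.3 to 91.5 and 83.5 (adjusted p = 0.0769 and 0.0499, limma). The Spag9 and Ptprf exons are shown, since they were among the firmest and are only slightly longer than a microexon.
Spag9, 39 nt at chr11:93974577-93974615, plus strand: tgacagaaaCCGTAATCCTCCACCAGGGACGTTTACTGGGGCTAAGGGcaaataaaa
Ptprf, 33 nt at chr4:117890617-117890649, minus strand: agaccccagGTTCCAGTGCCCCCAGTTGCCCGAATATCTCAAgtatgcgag

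Decreased cassette exons were led by Pkd2, the channel polycystin-2. Its 121-nt exon, whose length is not a multiple of 3, fell from 80.9, 85.6 and 93.9 to 30.3 and 52.5 on 43 and 90 reads with Vorinostat (adjusted p = 0.0944, limma). A 96-nt exon of Smarca2, an ATPase of the SWI/SNF chromatin remodeller, fell from 48.9, 47.2 and 30.4 to 5.8 and 4.7 and was nearly lost (adjusted p = 0.0477, limma). In the stress granule protein gene Ubap2l a 60-nt exon fell from 56.03, 57.6 and 57.5 to 29.8 and 26.8 (adjusted p = 0.0161, limma). The actin regulator Mtss1 lost a 195-nt exon, from 56.6, 57.7 and 55.7 to 19.6 and 30.1 (adjusted p = 0.0857, limma), while a 12-nt microexon of the same gene increased by 10.1 PSI. In Galns, a lysosomal sulfatase, and Urb1, a ribosome assembly factor, exons of 137 and 180 nt fell by 36.8 and 29.6 PSI (adjusted p = 0.0875 and 0.161, limma).

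**Figure D2:**
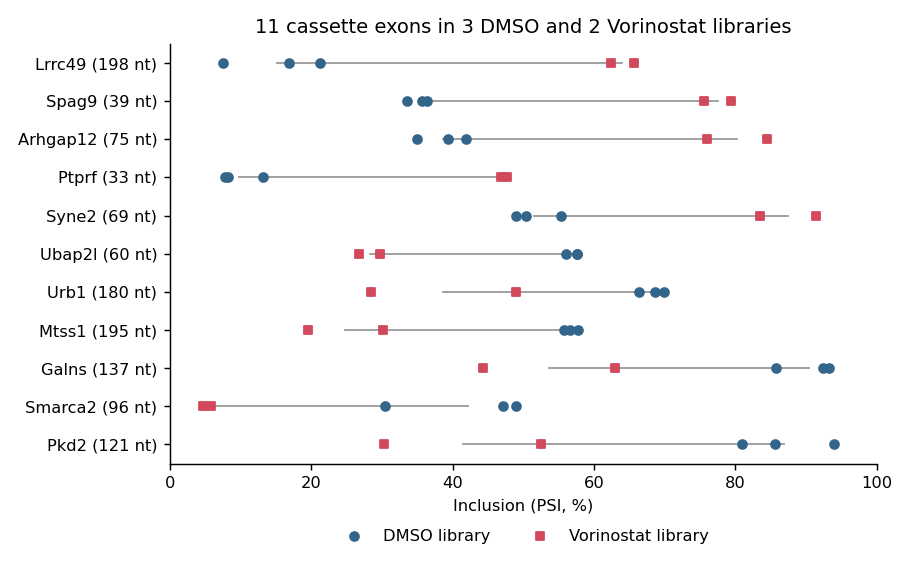
Inclusion of 11 named cassette exons longer than 27 nt in each library, with PSI in percent on the horizontal axis, circles for the 3 DMSO libraries, squares for the 2 Vorinostat libraries and a grey line between the group means. Lrrc49, Spag9 and Arhgap12 moved up by more than 40 PSI, and Pkd2 moved down by 45.4 PSI with its 2 squares well apart.

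Fewer introns than exons were called, as a share of those detected. Of 88012 introns, 250 were retained more (0.284%) and 82 less (0.0932%), but only 74 and 38 of these were measured in all 5 libraries. The balance was not seen among the 1717 introns with a DMSO mean of 10 to 90 PSI, of which 77 (4.5%) were retained more and 80 (4.7%) less, with a median change of -2.02 PSI. Without Vorinostat A, 436 were retained more, and without DMSO A, B or C the introns retained less numbered 174, 150 or 144. The introns retained more had a median length of 764.5 nt and those retained less of 291.5 nt, against 1277.5 nt over all detected. In Obsl1, a cytoskeletal adaptor, a 78-nt intron went from 3.2, 1.8 and 1.4 to 28 and 44.8, though on only 16 and 21 reads with Vorinostat (adjusted p = 0.0285, limma). An intron of Phf21a, a reader subunit of the LSD1 corepressor complex, rose from 15.8, 22.2 and 20 to 50 and 42.9 on 15 to 33 reads (adjusted p = 0.205, limma). Introns of C330006K01Rik, 9930104L06Rik, Card6 and Mett11d1 gained 27.97 to 34.4 PSI, all with an adjusted p above 0.05, and Card6 was not called without Vorinostat A. Among introns retained less, that of Dpp7, a lysosomal peptidase, fell from 54.6, 54.04 and 53.1 to 26.1 and 22.2 (adjusted p = 0.149, limma). An intron of Znf512b, a zinc finger protein gene, had the most reads and fell from 69.6, 74.6 and 72.8 to 47.5 and 50.1 (adjusted p = 0.106, limma). Introns of BC023814, Rgl3, Lime1 and Bin1 fell by 24.2 to 33.9 PSI. The Bin1 call, on 15 reads in Vorinostat A, was lost without Vorinostat A, DMSO B or DMSO C.

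Alternative splice sites moved in pairs, because the sites of an event share their reads and 1 gains what the other loses. Of 29355 alternative 3′ sites, 118 increased (0.402%) and 119 decreased (0.405%), and of 21550 alternative 5′ sites, 143 increased (0.664%) and 131 decreased (0.608%). Without Vorinostat A these counts became 233, 231, 235 and 227, and without Vorinostat B the 5′ counts became 221 and 201. Leaving out DMSO B gave 221 and 209 for the 5′ sites, and leaving out DMSO C gave 197 decreased ones. The largest change of any class was in Itga7, the integrin alpha 7 subunit that binds laminin. Use of its upstream 5′ site, which leaves out 223 nt, was 3.2, 4.9 and 3.7 in DMSO and 79.2 and 82.9 with Vorinostat, on 55 to 206 reads (adjusted p = 0.01096, limma). Its RNA level was also higher, from 1.54 to 13.2 RPKM, and its junction reads rose (adjusted p = 3.84e-07, limma). Pkmyt1, an inhibitory kinase of Cdk1, shifted to a 5′ site 457 nt downstream, from 3.6, 0.6 and 3.9 to 70.4 and 51.3 (adjusted p = 0.0398, limma). In the RNA-binding protein genes Hnrnpk and Hnrpdl, use of a 5′ site rose by 45.8 PSI and fell by 58.5 PSI (adjusted p = 0.0407 and 0.0597, limma). The 3-nt acceptor of Cyp4f16 met the rule at 30.5 PSI, but DMSO C was at 0 where A and B were at 38.3 and 39.3, and the fit did not call it (adjusted p = 0.455, limma).

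Some regulators of neural splicing and hnRNP genes had splicing changes of their own. Ptbp2, the neural polypyrimidine tract binding protein, lost a 34-nt exon at chr3:119427530-119427563, from 83.2, 87.03 and 81.6 to 67.7 and 47.3 (adjusted p = 0.109, limma). The length of this exon is not a multiple of 3. Elavl2, a neuronal RNA stabiliser, gained a 39-nt exon, from 31.3, 35.4 and 29.2 to 58.4 and 61.8 (adjusted p = 0.0281, limma). Mbnl1, a muscleblind regulator, lost part of its 54-nt exon, from 55.2, 53.8 and 54.4 to 35.6 and 34.3, and of its 111-nt exon, which fell by 12.6 PSI (adjusted p = 0.118 and 0.0875, limma). A 40-nt exon of Rbfox2 fell by 16.9 PSI, a 79-nt exon of Srrm3 by 23.4 PSI and a 152-nt exon of Celf1 by 11.4 PSI (adjusted p = 0.126, 0.321 and 0.282, limma). In all, 10 of 422 events in 26 neural regulators were called, beside 1603 of 196528 events of all kinds (0.816%). Of 354 events in 19 hnRNP genes 6 were called, among them a 147-nt exon of Hnrnpd that rose from 53.9, 52.8 and 53.4 to 68.6 and 73.6 (adjusted p = 0.0496, limma). None of 164 events in 15 SR protein genes and none of 991 in 34 core spliceosome genes was called.

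Called exons of neuronal, chromatin and cell cycle genes are given as examples. In 33 neuronal genes 9 of 458 events were called, and in 18 deacetylase genes 6 of 415. In 24 corepressor genes 8 of 802 were called, in 19 acetyltransferase and reader genes 6 of 734 and in 35 proliferation genes 3 of 806. The corepressor, acetyltransferase and proliferation lists were thus near or below the 0.816% of all events. Mapt, the microtubule-associated protein tau, gained a 93-nt exon, from 29.95, 29.2 and 24.4 to 49.7 and 49.4, and a 711-nt exon, from 9.6, 8.9 and 9.4 to 32.3 and 25.7 (adjusted p = 0.08396 and 0.0195, limma). Both rose in both Vorinostat libraries. The synaptic scaffold gene Homer1 gained 15.4 PSI of a 36-nt exon, and Nlgn2, an adhesion molecule of inhibitory synapses, lost 22.2 PSI of a 51-nt exon (adjusted p = 0.398 and 0.282, limma). Of the HDAC corepressor genes, Ncor1 gained 2 exons of 99 and 174 nt, by 13.3 and 14.5 PSI (adjusted p = 0.141 and 0.197, limma). Cdk4, a G1 kinase, gained a 234-nt exon, from 76.7, 77.8 and 74.1 to 89.6 and 90.6 (adjusted p = 0.01104, limma), and Cdc25c, a phosphatase of mitotic entry, lost a 102-nt exon, from 94.6, 98.3 and 98.2 to 72.5 and 79.2 (adjusted p = 0.0769, limma).

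RNA levels changed widely, and in bulk RNA fewer cells of a kind and less RNA per cell cannot be told apart. Levels were deposited as 1 RPKM (reads per kilobase, scaled to library size) per gene and condition with the replicates merged, so the RPKM ratios have no test. Of 10204 genes above 5 RPKM in either condition, 1059 were called higher (10.4%) and 1314 lower (12.9%), past 2-fold on the log2(RPKM + 0.5) scale both as deposited and after centring on the median gene. Scaling decided the balance: the median gene had a log2 ratio of -0.36 (0.778-fold), lower genes were 55.4% of those called, 68.4% with the deposited ratio alone (1059 higher, 2293 lower) and 45.0% with the centred ratio alone (1606 higher, 1314 lower). A gene at or under 5 RPKM in DMSO could enter only by being higher, which was the case for 587 of the 1059. Among the 9397 genes above 5 RPKM in DMSO, 472 (5.0%) were higher and 1314 (14%) lower.

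A replicate check came from the junction reads of the event table, summed per gene and library over exon events and scaled to 1000000 reads per library (junction CPM). This measure was added after the data had been seen, comes from the same libraries as the RPKM, and can count a read at more than 1 exon. The limma fit over 10189 genes placed 7342 (72.1%) past an FDR of 0.05, with 3882 higher and 3460 lower, and at 2-fold 2042 (20%) rose and 1438 (14.1%) fell. Its median log2 difference was 0.04. Of the genes called by RPKM that could be fitted, 739 of 743 higher and 952 of 954 lower ones passed in the same direction. Exceptions among the higher genes were Carhsp1, Wdr31, Taf9 and Sirt5, of which the last 3 had a junction difference of opposite sign (-0.28, -0.30 and -0.15 on the log2 scale), and among the lower ones Tada2b and Rnaseh2a. The log2 differences of Vorinostat A and B from DMSO correlated across genes with r = 0.97, and genes are not independent replicates.

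**Figure D3:**
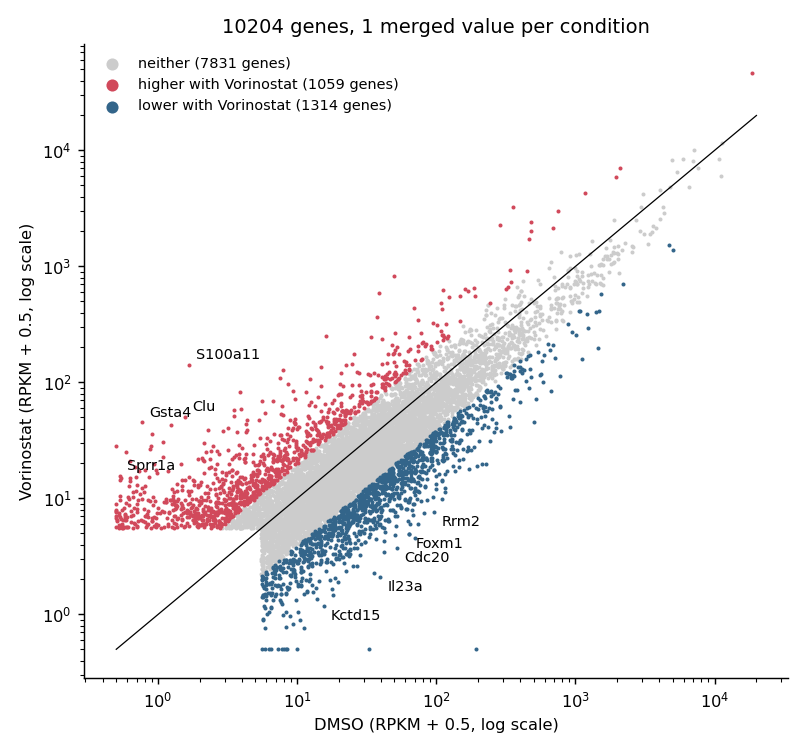
Level of 10204 genes with Vorinostat (vertical) against DMSO (horizontal), as RPKM + 0.5 on log axes, with 1 merged value per condition, higher genes in red, lower genes in blue and the line of equality in black. The 1059 higher genes reach far up from low DMSO levels, as for S100a11 and Gsta4, and the 1314 lower genes include Il23a, Cdc20, Foxm1 and Rrm2.

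The largest rises were in genes that were nearly silent in DMSO. S100a11, a small calcium-binding protein, went from 1.17 to 142 RPKM, a log2 ratio of 6.41. Glutathione S-transferases of different classes, which conjugate glutathione to reactive compounds, were among them: Gsta4 went from 0.26 to 44.6 RPKM, Gstm7 from 0.4 to 35.2 RPKM and Gstt1 from 0.13 to 20.6 RPKM. Gsta4 had a junction CPM of 0.0921, 0.345 and 0.588 in DMSO A, B and C and 82.8 and 52.3 in Vorinostat A and B, a log2 difference of 7.71 ± 0.58 (SE, adjusted p = 5.17e-06, limma). Every Vorinostat value was far above every DMSO value. Clu, the extracellular chaperone clusterin, had 2.71, 3.3 and 2.27 and then 151 and 129 (log2 difference 5.66 ± 0.18, SE, adjusted p = 1.21e-07, limma), with an RPKM change from 1.06 to 49.96 RPKM. The other genes of the 10 largest were Insl6, an insulin-like gene, from 0.73 to 42.6 RPKM, Adgrg1, an adhesion receptor, from 0.39 to 27.7 RPKM, Sprr1a, a small proline-rich protein also known from injured neurons, from 0.03 to 15.2 RPKM, and the lincRNAs RP24-241I4.2 and RP23-415L22.2, with log2 ratios of 5.40 and 4.94. S100a11 and these 5 genes have no junction fit, so the 2 merged values are all that stands behind them.

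The largest falls included genes of DNA synthesis and mitosis. Il23a, the p19 subunit of interleukin 23, came first, from 38.8 to 1.61 RPKM, with a junction CPM of 48.4, 53.6 and 55.3 in DMSO and 3.17 and 2.29 with Vorinostat (log2 difference -4.26 ± 0.17, SE, adjusted p = 2.09e-07, limma). Cdc20, the activator of the anaphase-promoting complex, had 53.7, 48.3 and 48.3 and then 3.22 and 2.99 (log2 difference -3.99 ± 0.13, SE, adjusted p = 1.21e-07, limma). Foxm1, a transcription factor of G2 and mitosis genes, had 136, 134 and 124 and then 9.47 and 14.9 (adjusted p = 6.48e-07, limma). The groups stood far apart for all of these. Rrm2, a subunit of ribonucleotide reductase, went from 96.03 to 7.13 RPKM and Tk1, thymidine kinase, from 69.4 to 4.04 RPKM. Rad51ap1, a recombination factor, fell by 3.11 on the log2 scale of junction reads, Exosc8, an RNA exosome subunit, by 3.69, Fam64a by 3.88, and Kctd15 dropped by 3.43 (adjusted p from 1.21e-07 to 2.29e-06, limma). The lincRNA RP23-281H4.5 went from 10.6 to 0.27 RPKM.

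Proliferation genes were lower nearly throughout. Of 38 cyclin, E2F, replication and mitosis genes tested, 35 were lower and 0 higher, with a median log2 ratio of -2.69 against -0.36 over all genes, and all 32 with a junction fit fell. Ccna2, cyclin A2, went from 194 to 18.4 RPKM, Mcm5, a helicase subunit, from 115 to 11.7 RPKM, and Ccnd1, cyclin D1, from 93.5 to 9.74 RPKM. Junction CPM of Ccnd1 was 181, 181 and 159 in DMSO and 23.6 and 22.5 with Vorinostat (adjusted p = 1.21e-07, limma). In the opposite direction, Cdkn1a, the CDK inhibitor p21, was the 1 higher gene among 6 CDK inhibitors, from 11.6 to 62.8 RPKM. Its junction CPM rose from 6.67, 6.8 and 6.23 to 52.2 and 34.2 (log2 difference 2.68 ± 0.19, SE, adjusted p = 3.56e-06, limma). Of 8 Myc family genes, the antagonist Mxd4 was higher and Mxd3 lower. Mxd4 was at or under 5 RPKM in DMSO and could enter only by being higher. Of the 7 above that level 0 were higher and 1 (14.3%) lower, a share near that of all such genes. In the junction fit 3 of 8 rose and 3 fell at its FDR limit. Myc, with a log2 ratio of -1.11 that was -0.75 after centring, was not called.

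Promoters of the called genes were read for CpG content and short motifs. RefSeq promoter sequences (GRCm38.p6, from 250 bases before to 50 after the start) were found for 713 higher, 949 lower and 7449 tested genes. Higher genes had a median of 18 CpG dinucleotides against 22 for lower and 22 for all tested genes. Over all promoters of the table, tested or not, the median was 7. Fewer than 10 were found in 27.2% of higher genes, against 11.8% of lower and 12.7% of all tested genes. The letters TTTGAA on either strand, the core of the cell cycle genes homology region, were in 18.4% of lower, 8.7% of higher and 11.1% of all tested promoters, and in 18.1% of all 27025 promoters of the table. CCAAT on either strand was in 41.9% of both sets, in 39.6% of those tested and in 37.9% of all promoters of the table. The AP-1 letters TGANTCA were in 6.0% of higher, 4.2% of lower and 4.2% of all tested promoters, and in 7.9% of all promoters of the table. Neighbouring matches of these motifs can share bases at their ends, and a match says nothing of what binds. Of the 1059 higher genes, 587 were at or under 5 RPKM in DMSO, a level at which no gene could be called lower. The promoters were not split by DMSO level, so higher and lower sets also differ in that level. Whether CpG content or motif shares differ between genes of like DMSO level was not tested. The promoters of Cdc20 and S100a11, a large fall and the largest rise, are shown with TTTGAA and CCAAT in capitals in Cdc20 and with TGANTCA in capitals in S100a11, each written 5′ to 3′ on the strand of the gene.
Cdc20, chr4:118437294-118437593 (GRCm38.p6), minus strand: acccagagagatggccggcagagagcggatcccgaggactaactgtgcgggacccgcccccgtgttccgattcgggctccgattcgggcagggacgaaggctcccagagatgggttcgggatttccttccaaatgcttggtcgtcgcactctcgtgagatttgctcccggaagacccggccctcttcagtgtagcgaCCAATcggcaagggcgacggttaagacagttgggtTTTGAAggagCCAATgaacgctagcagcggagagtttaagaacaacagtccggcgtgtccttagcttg
S100a11, chr3:93520246-93520545 (GRCm38.p6), plus strand: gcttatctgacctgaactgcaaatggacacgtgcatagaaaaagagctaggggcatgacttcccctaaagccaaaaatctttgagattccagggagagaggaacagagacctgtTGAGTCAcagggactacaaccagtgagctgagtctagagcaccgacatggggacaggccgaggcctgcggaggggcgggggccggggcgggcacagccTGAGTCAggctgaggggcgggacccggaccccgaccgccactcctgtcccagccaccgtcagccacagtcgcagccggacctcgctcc

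The lists of SR proteins, hnRNP proteins and core spliceosome genes held no gene called higher. Of 14 SR and related proteins, which bind exons and promote their use, 6 were lower and 0 higher (median log2 ratio -1.21). Srsf7 went from 237 to 59.3 RPKM, Srsf2 from 320 to 110 RPKM and Srsf3 from 440 to 158 RPKM. Of 23 hnRNP proteins, 3 were lower, Hnrnpab, Hnrnpd and Hnrnph3, and 0 higher (median -1.12), a share (13%) near the 12.9% lower of all tested genes, but all 13 with a junction fit fell. Of 39 core spliceosome genes, 11 were lower and 0 higher (median -0.91), among them Prpf31, from 83.8 to 21.7 RPKM, and U2af2, from 144 to 43.3 RPKM. Each of these medians was below that of all genes (-0.36) and so stayed below 0 after centring.

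The neural splicing regulators did not share a direction. Of 27 tested, 2 were higher and 1 lower, with a median log2 ratio of -0.41. Ptbp2, a repressor of neuronal exons, was the lower one, from 88.96 to 24.2 RPKM, with a junction CPM of 194, 195 and 203 in DMSO and 45.5 and 53.3 with Vorinostat (adjusted p = 4.58e-07, limma). Its paralog Ptbp1 was not called by RPKM, from 476 to 241 RPKM, and fell by 0.74 in the junction fit (adjusted p = 1.14e-04, limma). Mbnl2 was higher, from 27.1 to 64.5 RPKM, as was Celf6, from 5.11 to 11.7 RPKM. Srrm4 itself, the activator of neural microexons, was not called by RPKM, from 10.4 to 12.4 RPKM, while its junction CPM, 38.7, 36.5 and 36.8 in DMSO and 44.2 and 70.1 with Vorinostat, rose by 0.58 ± 0.18 on the log2 scale (SE, adjusted p = 0.0166, limma).

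By RPKM, the deacetylase list held no gene called lower and the corepressor list none called higher. The junction fit went both ways at its FDR limit. There, 7 of 15 fitted deacetylases rose and 4 fell, and 5 of 24 fitted corepressors rose and 14 fell. Of 16 histone deacetylases and sirtuins tested, 4 were higher and 0 lower (median log2 ratio 0.25), namely the class II gene Hdac5, the class IV gene Hdac11 and the NAD-dependent sirtuins Sirt2 and Sirt5, which act without the zinc that vorinostat binds. Hdac11 went from 6.75 to 22.5 RPKM, with a junction CPM of 21.7, 23.6 and 18.7 and then 89.3 and 78.5 (adjusted p = 2.60e-06, limma). Hdac5 went from 13.9 to 30.5 RPKM and Sirt2 from 19.5 to 42.1 RPKM, and both rose in the junction fit. Sirt5 was higher by RPKM, from 72.8 to 205 RPKM, but its junction CPM was 6.92, 5.57 and 5.93 in DMSO and 6.96 and 4.35 with Vorinostat (adjusted p = 0.576, limma), so this call does not hold on that measure. Of 25 corepressor subunits, 5 were lower and 0 higher (median -0.64). Rcor2, a CoREST subunit, went from 58.95 to 9.21 RPKM, Mbd3 from 44.03 to 8.24 RPKM and Chd3, an ATPase of the NuRD complex, from 30.3 to 6.15 RPKM. Of 24 acetyltransferases and bromodomain readers 4 were lower and 0 higher, led by the acetyltransferase Kat2a, from 75.4 to 14.6 RPKM. These shares, 20.8% of the 24 corepressors above 5 RPKM in DMSO and 16.7% of the acetyltransferases and readers, were not far from the 14% lower of all such genes. The 4 higher deacetylases were 25% of 16, all above 5 RPKM in DMSO, beside 5.0% higher of all such genes.

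**Figure D4:**
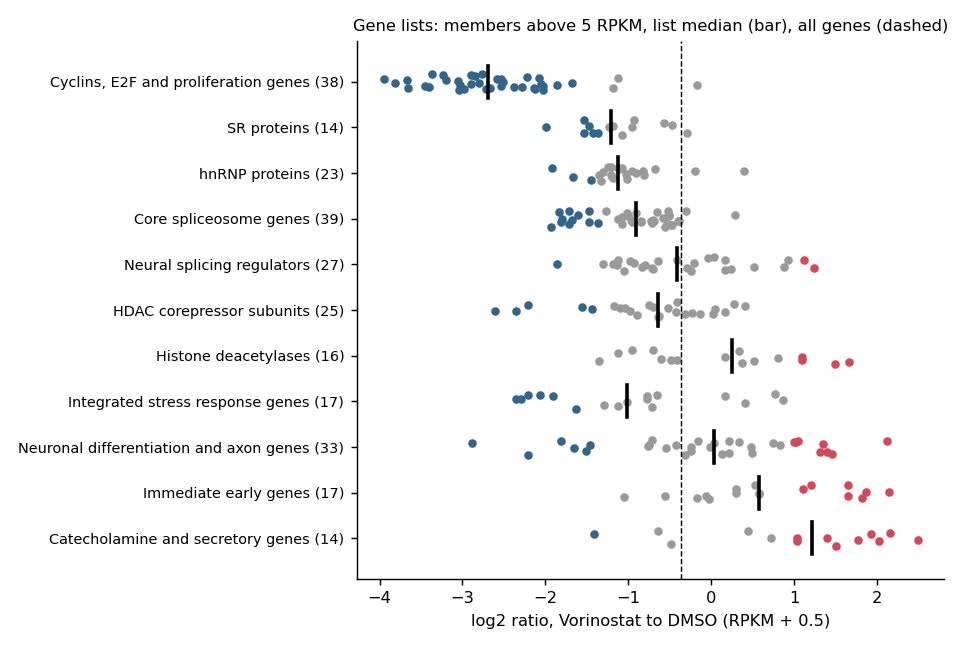
Log2 ratio of RPKM + 0.5, Vorinostat to DMSO, for the tested members of 11 gene lists, with 1 point per gene, red for higher, blue for lower and grey for uncalled genes, a bar at the median of each list and a dashed line at the median of all genes (-0.36). The proliferation list lies lowest, with a median of -2.69, and the catecholamine and secretory list highest, with a median of 1.21.

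Most secretory granule genes were higher, and neuronal genes moved in both directions. Of 14 catecholamine and secretory granule genes, 9 were higher and 1 lower (median log2 ratio 1.21), and of the 12 above 5 RPKM in DMSO 7 were higher and 1 lower (median 1.04). Among the secretory genes, Scg2, secretogranin II, went from 112 to 631 RPKM, with a junction CPM of 54.1, 63.5 and 55.8 and then 386 and 442 (adjusted p = 1.81e-07, limma). Vgf, a neuropeptide precursor, went from 108 to 483 RPKM, and Ddc, the decarboxylase that makes dopamine, from 5.24 to 21.3 RPKM. Dbh, which turns dopamine into noradrenaline, was the lower one of the 12 secretory genes above 5 RPKM in DMSO, from 11.4 to 3.98 RPKM. Of 33 neuronal differentiation and axon genes, 8 were higher and 6 lower (median 0.03). The higher ones included the synaptic vesicle genes Snap25, from 108 to 276 RPKM, and Syt1, from 40.2 to 112 RPKM, and the neuronal enolase Eno2, from 20.8 to 92.2 RPKM. The lower ones included the microtubule genes Stmn1, from 951 to 270 RPKM, and Tubb3, from 396 to 125 RPKM. Of 11 ion channel genes 3 were higher, Cacna1b, Scn9a and Cacna1g, and 1 was lower. Cacna1g, at 2.23 RPKM in DMSO, could enter only by being higher. Of the 10 above 5 RPKM in DMSO, 2 (20%) were higher, beside 5.0% of all such genes, and 1 (10%) lower. The median of the 11 was -0.68, below that of all genes (-0.36). In the junction fit 3 of 10 rose and 5 fell at its FDR limit. Cacna1b went from 8.3 to 34.2 RPKM, with a junction CPM of 101, 96.3 and 91.6 and then 365 and 411 (adjusted p = 3.32e-07, limma).

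**Figure D5:**
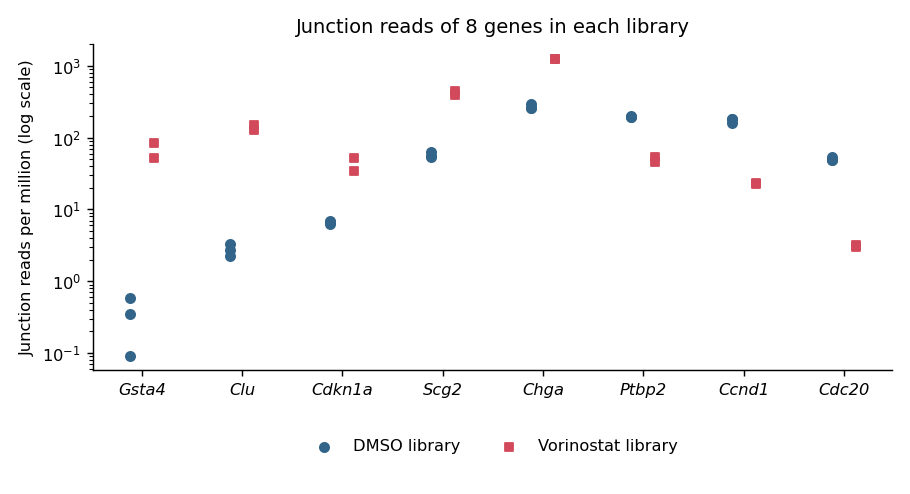
Junction CPM (log scale) of 8 genes in each library, with circles for the 3 DMSO and squares for the 2 Vorinostat libraries. Gsta4, Clu, Cdkn1a, Scg2 and Chga lie higher and Ptbp2, Ccnd1 and Cdc20 lower in both Vorinostat libraries than in every DMSO library, by more than the spread within either group.

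Lineage transcription factors moved in both directions. Of 15 tested, 4 were higher and 2 lower. Phox2a, a homeodomain factor of the sympathetic lineage, was higher, from 78.9 to 159 RPKM, as were Isl1, from 15.5 to 46.2 RPKM, and Gata3, from 7.34 to 21.3 RPKM. Of 16 markers that define N2A cells, 12 were above 5 RPKM in either condition, 4 of these higher and 2 lower, and their summed RPKM was 1799.1 in DMSO and 2079.8 with Vorinostat. Markers of other cell types were low: their summed RPKM went from 0.9 to 13.5 for 8 fibroblast, 3.6 to 8.3 for 10 glial, 0.7 to 1.6 for 8 immune and 1.0 to 6.3 for 8 endothelial and epithelial genes. For 8 muscle genes it went from 29.0 to 43.3, most of it Myh3, which went from 27.99 to 35.3 RPKM. Col1a1, a collagen of fibroblasts, accounted for part of the first, from 0.02 to 5.4 RPKM. Of these lists 2, 5, 2, 4 and 2 genes, in the order fibroblast, glial, immune, endothelial and epithelial, and muscle, were listed at 0 in DMSO. Whether other cells had any part in the results was not tested.

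Signaling and stress genes gave a mixed picture. Of the 11 immediate early genes above 5 RPKM in DMSO, 3 were higher and 0 lower (median log2 ratio 0.30), and of 6 that entered only through Vorinostat 4 were higher. Among the higher ones were Ier3, from 5.57 to 26.3 RPKM, and Fos, from 2.87 to 11.4 RPKM. Of 13 MAPK feedback genes 4 were higher and 2 lower, or 3 and 2 of the 12 above 5 RPKM in DMSO. Rgs4, a regulator of G protein signaling, went from 3.01 to 51.1 RPKM, Phlda1 from 5.4 to 53.6 RPKM and the ERK phosphatase Dusp6 from 22.01 to 140 RPKM, with a Dusp6 junction CPM of 7.48, 8.12 and 7.27 and then 62.4 and 59.5 (adjusted p = 2.83e-07, limma). Integrated stress response genes went the other way, with 6 of 17 lower and 0 higher (median -1.01), led by the one-carbon enzyme Shmt2, from 221 to 42.8 RPKM, and the transcription factor Atf5, from 20.6 to 3.83 RPKM. Of 14 p53 genes, Trp53inp1 and Cdkn1a were higher and Trp53, Gdf15 and Bax lower, with Trp53 itself, the gene of p53, going from 73.6 to 14.8 RPKM. In the Bcl2 family, the BH3-only gene Bmf was higher, from 2 to 28.04 RPKM, and the effectors Bax and Bak1 and their relative Bok were lower among 9 tested. Beside these lists, 5.0% of all genes above 5 RPKM in DMSO were higher and 14% lower. Above that level, 27.3% of immediate early and 25% of MAPK feedback genes were higher. Lower genes made up 16.7% of MAPK feedback genes and 37.5% each of 16 integrated stress response and 8 Bcl2 family genes. The p53 shares, 1 higher (7.7%) and 3 lower (23.1%) of 13, rest on few genes.

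The other lists follow, and higher genes at or under 5 RPKM in DMSO, such as Dnajb4, Osgin1, Mt1 and Cd74, could enter only by being higher. Heat shock genes had 1 higher, Dnajb4, and 1 lower, Hspd1, of 19. Metal and oxidative stress genes had 4 higher, with Osgin1 from 0.29 to 7.67 RPKM and Mt1 from 0.31 to 5.76 RPKM, and 2 lower, Gpx1 and Txn1, of 18. Antigen presentation genes had 4 higher of 9, led by the invariant chain Cd74, from 3.34 to 28.3 RPKM, and 1 lower, the immunoproteasome subunit Psmb10, from 60.6 to 7.62 RPKM. DNA methylation genes had 3 lower of 12, among them Uhrf1, from 134 to 34.4 RPKM, and Dnmt1, from 72.8 to 26.5 RPKM. Of 27 sterol and fatty acid synthesis genes 3 were lower, with Fasn, fatty acid synthase, from 116 to 23.8 RPKM, and of 13 histone genes 4 were lower, with the variant H2afz from 561 to 118 RPKM. Of 18 Polycomb genes Jarid2 was higher and Ezh2, the methyltransferase, lower, of 2 germ line genes Rec8 was higher, and of 50 ribosomal protein genes 1 was lower. The Polycomb median was -0.55 and the ribosomal protein median -0.63, beside -0.36 for all genes. Of all genes above 5 RPKM in DMSO, 5.0% were higher and 14% lower. Above that level, fewer were lower among sterol (11.1%), heat shock (5.6%), Polycomb (5.6%) and ribosomal protein genes (2.0%). The same held for oxidative stress and antigen presentation genes (12.5% each), but not for DNA methylation (25%) and histone genes (30.8%). Higher genes made up 12.5%, 37.5% and 5.6% of the oxidative stress, antigen presentation and Polycomb genes.

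The series also held CI-994, BRD4884 and BRD6688, ortho-aminoanilide inhibitors of class I enzymes, in 2 libraries each, at 5, 10 and 10 µM. Their doses differ from that of Vorinostat and they share its DMSO libraries, so values are given side by side with no comparison. For the Spna2 microexon, PSI was 93.8 and 92.8 with CI-994, 88.1 and 88.9 with BRD4884 and 87.5 and 87.99 with BRD6688, beside 92.3 and 92.9 with Vorinostat. For the Ncam1 microexon it was 60.7 and 56.8 with CI-994, 63.8 and 64.8 with BRD4884 and 62.5 and 58.7 with BRD6688, beside 36.2 and 31.3 with Vorinostat. For the Lphn2 microexon CI-994 gave 30.1 and 38.5, BRD4884 32.6 and 36.3 and BRD6688 34.99 and 33.9, beside 40.8 and 45.7. The Spna2 values lay above every DMSO library in all 8 libraries of the 4 inhibitors. S100a11 was at 190, 79.1 and 22.03 RPKM in the same order, beside 142 with Vorinostat and 1.17 in DMSO. Cdc20 was at 5.09, 23.6 and 26.03 RPKM, beside 3.24 and 51.9, and Sprr1a at 2.15, 1.13 and 0.25 RPKM, beside 15.2 and 0.03.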

How the data were processed

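PolyA RNA of N2A cells (TruSeq v2 libraries) was compared between 2 Vorinostat and 3 DMSO libraries, grouped by the labels. Doses were taken from the compound list; a figure of the study gives Vorinostat a slightly lower dose. The authors ran vast-tools per library and deposited PSI values in percent with a quality string that holds inclusion and exclusion read counts per event, on mm9. The deposited RPKM values came from Salmon (version 0.10.2 per the submitters' processing notes, another version in the study's methods) on GENCODE vM21 transcripts with replicates merged by the authors, so no depth or spread stands behind them. The same table holds the authors' edgeR fold changes and p-values, which were not used. The kit does not mark strand, so a gene and an overlapping antisense gene cannot be told apart, and levels of near-identical family members (glutathione S-transferases, histones, ribosomal proteins) are less certain.

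Events needed adequate coverage (introns with 15 or more reads and a balance p not below 0.05) in 2 or more DMSO libraries and at least 1 Vorinostat library. Calls followed the study's rule, rebuilt with 2000 beta draws per library pooled within a group. The limma fit (limma 3.58.1, R 4.3.3, trend and robust) used log2 of inclusion over exclusion reads with 1 read added to each, for events with a mean PSI from 2 to 98. Genes above 5 RPKM in either condition were called at 2-fold on log2(RPKM + 0.5). Junction reads per gene, with a prior of 2 reads, were fitted likewise for genes with at least 50 reads on average. Other steps used Python 3.11.15, numpy 2.4.6, pandas 2.3.3 and scipy 1.17.1. The event calls and the limma fits were tested on simulated data.

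Named events were the called ones measured in all 5 libraries without overlap, ranked by change in PSI (10 microexons, 6 cassette exons and introns and 3 splice sites a direction), and exons assayed by RT-PCR. Named genes were the 10 largest rises and falls with both values above 0, and 2 to 4 examples per list, the largest first. Members and gene lists were chosen with earlier results of these data known. Replicate letters are shared between groups without a stated pairing, and the deviations of same-lettered libraries correlated at -0.04 and -0.06. Exon sequences came from the single vM21 transcript match in exon and flanking intron lengths, and promoters from RefSeq. Exons of chromosome 18 are not shown, and results of some genes that the naming rules select are not reported here. Read counts here cover counting error only.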

Additional observations from a re-analysis of the deposited data

How the results depend on the processing

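In the order microexons, cassette exons, introns, alternative 3′ and alternative 5′ sites, increased then decreased, a minimum of 15 PSI left 26 and 11, 235 and 102, 143 and 52, 63 and 63, and 86 and 84 calls. A posterior above 0.99 left 40 and 10, 323 and 164, 79 and 29, 52 and 45, and 73 and 64. Requiring all 5 libraries left 40 and 11, 365 and 171, 74 and 38, 59 and 61, and 103 and 96. Requiring the limma FDR of 0.05 with 10 PSI left 2 and 3, 40 and 13, 3 and 1, 1 and 1, and 14 and 14. With the replicate letter as a block in limma, 0 of 25830 events passed (3344 at an unadjusted p under 0.05, smallest adjusted p 0.246), so the blocked count was 0 in every class. The letters share only a name here, and in the junction fit the block gave 2037 higher and 1474 lower genes. Microexons of up to 15 nt held 21 increases and 7 decreases. Leaving out 1 library at a time gave 46 to 58 and 12 to 17 microexons, 514 to 579 and 276 to 394 cassette exons, 287 to 436 and 102 to 174 introns, 161 to 233 and 159 to 231 alternative 3′ sites, 188 to 235 and 181 to 227 alternative 5′ sites, and 2031 to 2080 and 1337 to 1619 genes by junction reads. The cause of these shifts was not tested. The 61 named events include the Mef2d, Mast2 and Ergic3 exons, which were not called to begin with. Without Vorinostat A, 57 of the 61 had an unchanged outcome, called or not. Under the limma FDR with 10 PSI, 22 had an unchanged outcome, counting uncalled exons, and 39 lost their call. Bin1 was lost at 20 or more reads.

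Higher genes numbered 1606 with the centred ratio alone, 2233 above 1 RPKM, 697 above 10 RPKM, 2530 without a filter, 1714 at 1.5-fold and 2042 by junction reads. Lower genes numbered 2293 with the deposited ratio alone, 2767 without a filter and 2462 at 1.5-fold. The 20 named genes kept their calls and sign when centred and with a pseudocount of 0.1 or 1. Among genes above 5 RPKM in DMSO, 472 were higher and 1314 lower, a filter added after seeing the data. Depth is thin at some named introns (15 or 16 reads in Vorinostat A for Card6, Bin1 and Obsl1), and the RPKM values carry no depth at all.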

Other observations

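Levels were also read by class of RNA, as labelled in GENCODE vM21, as a description with no test and only for genes above 5 RPKM in DMSO, since a gene below that level could be called only by being higher. Of 8070 protein-coding genes, 4.8% were higher and 13.6% lower. Of 74 lincRNAs, which are long RNAs without a coding sequence, 10.8% were higher and 21.6% lower. Of 65 snoRNAs, guides of ribosomal RNA modification that mostly lie in introns of other genes, 3.1% were higher and 36.9% lower. Of 27 miRNA genes, 25.9% were higher and 11.1% lower, and of 17 snRNAs, 23.5% and 17.6%. The libraries were made from polyA RNA, so the snoRNA, miRNA and snRNA shares describe reads at those annotated entries. Levels of the mature short RNAs were not measured separately from transcripts that overlap them.

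A set of 8 higher genes was listed at 0 RPKM in DMSO, and these were picked out after their values were seen. Hba-a1, an alpha globin of red cells, was at 27.5 RPKM with Vorinostat. Cd7, a T cell surface protein, was at 8.45 RPKM, with a junction CPM of 0 in all 3 DMSO libraries and 3.79 and 3.95 in Vorinostat A and B. Sgca, a sarcoglycan of striated muscle, was at 7.23 RPKM, with a junction CPM of 0 in DMSO and of 7.52 and 7.30 with Vorinostat. Gast, the gastrin precursor, was at 6.60 RPKM. No fold is given against a level listed at 0.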
